A study of Mus musculus with 6 samples.

Results

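The genes described here encode the proteins of the cytosolic ribosome, together with their paralogues and annotated pseudogene copies, in mouse MLL-AF9 leukaemia cells. They were taken by symbol: Rpl or Rps followed by a digit, or Rplp0, Rplp1, Rplp2 or Rpsa, without the kinases of the Rps6k family and without symbols starting in Rps19bp or Rps27rt. Of 22180 genes with a probe set naming that gene alone, 83 fitted the rule, 48 of the large subunit (Rpl) and 35 of the small subunit (Rps). By symbol, 58 were ribosomal protein genes proper, 10 were paralogues or retrogenes and 15 carried a pseudogene symbol. Among the 10, RefSeq lists Rpl6l as a pseudogene and Rps4l as a transcribed pseudogene. RefSeq lists 66 of the 83 as coding genes, and 15 further coding genes whose symbols fit the rule were read only by probe sets that also name other genes.

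Gene expression was read on 6 microarrays, 3 of MLL-AF9 leukaemias from Evi1 transgenic mice (Evi1 Tg) and 3 of MLL-AF9 leukaemias from wild-type mice (WT). MLL-AF9 is a fusion oncogene of acute myeloid leukaemia that both groups carry, and Evi1 is a zinc finger transcription factor encoded by Mecom. All mice had the C57BL/6J background, the cells were untreated, and RNA came from 10000 unfractionated leukaemia cells per sample sorted for green fluorescence. The labels give neither the age or sex of the mice, nor the promoter and form of the transgene, nor whether the arrays of a group stem from separate mice, so a p-value speaks only of the spread among these 6 samples, which may be technical. The growth protocol describes methylcellulose medium with SCF, GM-CSF, IL-3 and IL-6 for colony assays, but the labels do not say whether the arrayed cells had been in it. Each array reads bulk RNA, in which fewer cells of a type and less RNA per cell cannot be told apart.

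A ribosome holds a small subunit, which binds and decodes mRNA, and a large subunit, which joins amino acids and passes the new chain out through an exit tunnel. Its proteins are made in near equal numbers, and most of their mRNAs start with a C followed by a run of pyrimidines, the 5′ terminal oligopyrimidine (TOP) motif, through which mTORC1 and LARP1 set their translation. Blood formation is sensitive to this supply: loss of 1 copy of several of these genes causes Diamond-Blackfan anaemia in humans, and unassembled RPL5 and RPL11 bind MDM2 and stabilise p53. An mRNA level measured on an array does not report on translation.

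The arrays were alike in brightness, with median intensities of 51.6 to 55.4. Over all genes, arrays of one group correlated at 0.978 to 0.992 (Pearson) and arrays of different groups at 0.972 to 0.985. Mecom read log2 intensities of 5.35, 5.24 and 5.23 in Evi1 Tg and 5.30, 5.23 and 5.09 in WT, below the background of 6.41 taken from genes silent in blood, so the labels alone give the direction of each difference. All 16 myeloid marker genes had means above background, with medians by array of 10.5 to 10.7 in Evi1 Tg and 10.4 to 10.9 in WT. Of these markers 8 had a difference above 0 and 8 below, Evi1 Tg minus WT, with a median of 0.0082. At an unadjusted limma p under 0.05, 4 were higher (all genes 4.5%) and 1 was lower (all genes 5.8%), while 0 passed the adjusted test. Mpo, myeloperoxidase, had the highest, reading 10.22, 9.75 and 9.04 in Evi1 Tg and 6.53, 6.09 and 7.98 in WT (difference 2.80, limma adjusted p = 0.139). Meis1 (0.85), Cd68 (0.64) and Elane (0.44) were also higher with separate groups (all genes 7.08%). Other markers went the other way, among them Ptprc with separate groups (difference -0.39, limma adjusted p = 0.418). Lyz2 (-0.36) and Csf1r (-0.31) were lower too, with overlapping groups. Median levels of measured erythroid (5 genes), B cell (6), T and NK cell (8) and stromal (8) markers lay between 5.25 and 5.83 in Evi1 Tg arrays and between 5.26 and 5.81 in WT arrays. The 4 megakaryocyte markers had medians of 5.83 to 6.36 in Evi1 Tg and 5.97 to 7.20 in WT, with WT 1 and WT 2 highest. The part of these markers in the values below was not tested.

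No cytosolic ribosomal protein gene passed the test. At a Benjamini-Hochberg adjusted p under 0.05 in limma, taken over all genes, 0 of the 83 were higher and 0 were lower in Evi1 Tg, where 25 of all 22180 genes were called (0.113%), 2 higher (0.00902%) and 23 lower (0.104%). A share of that size leaves little room for a call among 83 genes. At an unadjusted p under 0.05, 5 of the 83 were higher (all genes 4.5%) and 1 was lower (all genes 5.8%). Single arrays moved these counts: leaving out each in turn gave 1 (without Evi1 Tg 2) to 5 higher and 0 to 7 lower, the 7 without Evi1 Tg 1. The 3 Evi1 Tg arrays lay above all 3 WT arrays for 6 of the 83 (all genes 7.08%) and below them for 4 (all genes 7.47%). Read against the shares over all genes, these counts are no result about the 83.

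Differences were small in both directions. The log2 difference, Evi1 Tg minus WT, ran from -0.31 for Rps28 to 0.42 for Rpl37, with a median of -0.020 and quartiles of -0.12 and 0.067. The value of Rps28 moved with single arrays, to -0.16 without WT 1 and -0.55 without WT 3. The sign of that median was not stable: it was 0.0012 after quantile normalization and 0.022 without Evi1 Tg 3. The median over all genes was 0.012. A difference above 0 was found for 38 of the 83 (45.8%) and below 0 for 45. The share above 0 was 53.5% of all genes, 50.5% of genes above background and 47.7% of genes with a mean log2 intensity of at least 10. Standard errors (SE) ran from 0.072 to 0.267 with a median of 0.112. The 95% intervals of the difference lay within 1.5-fold either way for 71 of the 83 and within 2-fold for all 83. Larger differences of these probe sets thus lie outside the intervals, although differences near background are compressed. Among the 63 genes above background, the intervals of 54 lay within 1.5-fold and those of all 63 within 2-fold. The number of arrays limits this precision. The median within-group SD of the 83 was 0.141, the same to 3 digits as over all genes (0.141).

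**Figure D1:**
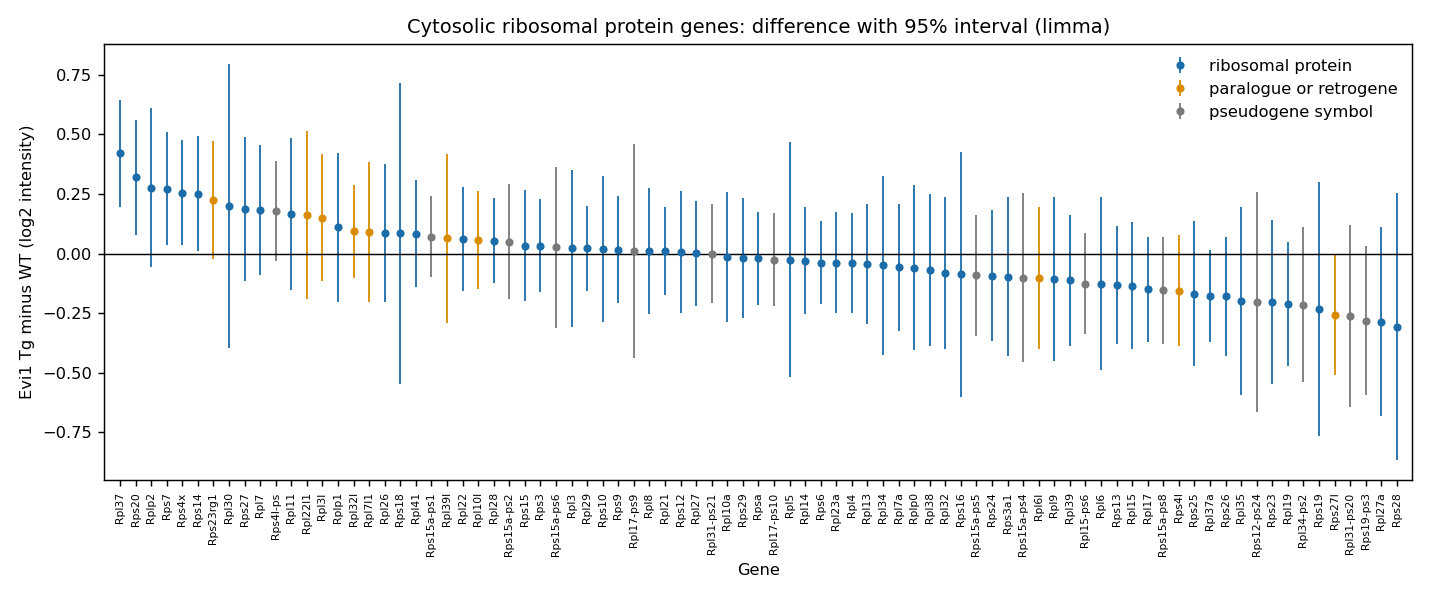
Evi1 Tg minus WT in log2 intensity for each of the 83 genes, in order of size, with 95% intervals from limma (n = 3 arrays per group) and colour by kind of gene. The points run from 0.42 for Rpl37 to -0.31 for Rps28, with 38 above 0, 45 below, and none called.

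The subunits had nearly the same median. The median difference was -0.019 for the 48 large-subunit genes and -0.020 for the 35 small-subunit genes. Among ribosomal protein genes proper 26 were above 0 and 32 below (median -0.022, n = 58). The 15 pseudogene symbols had a median of -0.092, with 5 above 0 and 10 below, and the 10 paralogues and retrogenes a median of 0.077, with 7 above 0 and 3 below. These medians describe the genes on these arrays and were not compared by a test. Most of the 10 paralogues and retrogenes lay below background, and of 54 genes silent in blood 37 were above 0 as well (68.5%).

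Rpl37, a zinc-binding protein of the large subunit, had the smallest p of the 83. Its log2 intensities were 6.95, 7.08 and 7.23 in Evi1 Tg and 6.73, 6.65 and 6.63 in WT, a difference of 0.42 (SE 0.0955, 1.34-fold, limma adjusted p = 0.202). Every Evi1 Tg array read higher than every WT array, at signals not far above the background of 6.41. Its near namesake Rpl37a, another zinc-binding large-subunit protein, read 7.37, 7.28 and 7.24 in Evi1 Tg and 7.50, 7.40 and 7.52 in WT (difference -0.18, SE 0.0819, adjusted p = 0.529). Here every Evi1 Tg array read lower than every WT array. A brighter probe set shared with Mir682 read 11.11, 10.91 and 10.72 in Evi1 Tg and 11.23, 11.24 and 10.58 in WT (difference -0.10, SE 0.198), with overlapping groups.

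Of the small-subunit proteins, Rps4x, encoded on the X chromosome, was the only bright gene with separate groups. It read 11.27, 11.52 and 11.40 in Evi1 Tg and 11.20, 11.11 and 11.10 in WT (difference 0.26, SE 0.0925, adjusted p = 0.405). Rps7, mutated in some patients with Diamond-Blackfan anaemia, read 8.25, 8.22 and 8.20 in Evi1 Tg and 7.81, 7.92 and 8.13 in WT (difference 0.27, SE 0.0999, adjusted p = 0.415). The Evi1 Tg arrays of Rps7 lay close together (SD 0.03) above all 3 WT arrays (SD 0.16), of which WT 3 came nearest to them. Rps14, whose loss of 1 copy underlies the anaemia of the human 5q- syndrome, read 6.76, 6.74 and 6.57 in Evi1 Tg and 6.32, 6.58 and 6.41 in WT (difference 0.25, SE 0.102, adjusted p = 0.462). The groups touched for Rps14, as Evi1 Tg 3 lay just below WT 2, and its WT mean of 6.44 was close to the background of 6.41. Rps20, a protein of the head of the small subunit, read 6.29, 6.49 and 6.34 in Evi1 Tg and 6.17, 6.06 and 5.92 in WT (difference 0.32, SE 0.101, adjusted p = 0.337). Its groups did not overlap, but its mean lay below background. A dimmer probe set of Rps20 gave a difference of -0.065 (SE 0.109) with overlapping groups, and the mean over both gave 0.13.

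Rps27l, a paralogue of Rps27 that p53 induces in human cells, was the single gene at an unadjusted p under 0.05 in the lower direction. It read 7.80, 7.49 and 7.74 in Evi1 Tg and 7.86, 7.997 and 7.95 in WT (difference -0.26, SE 0.106, adjusted p = 0.469). No array of one group crossed into the other, although Evi1 Tg 1 and WT 1 were close. Rpl17, which lies at the rim of the exit tunnel, read 7.37, 7.35 and 7.34 in Evi1 Tg and 7.45, 7.40 and 7.66 in WT (difference -0.15, SE 0.0929, adjusted p = 0.668). Rpl27a, a large-subunit protein, read 5.56, 5.53 and 5.47 in Evi1 Tg and 5.63, 5.59 and 6.21 in WT (difference -0.29, SE 0.167, adjusted p = 0.640). Both had separate groups with WT 3 as the highest array, and without WT 3 the differences were -0.072 for Rpl17 and -0.087 for Rpl27a. This probe set of Rpl27a lay below background. Brighter probe sets that it shares with other genes gave differences of -0.062 (SE 0.0863) and 0.15 (SE 0.153), so neither the direction nor the separation held across them. The other genes with separate groups were the pseudogene symbols Rps4l-ps (difference 0.18) and Rps15a-ps1 (difference 0.07), also below background.

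**Figure D2:**
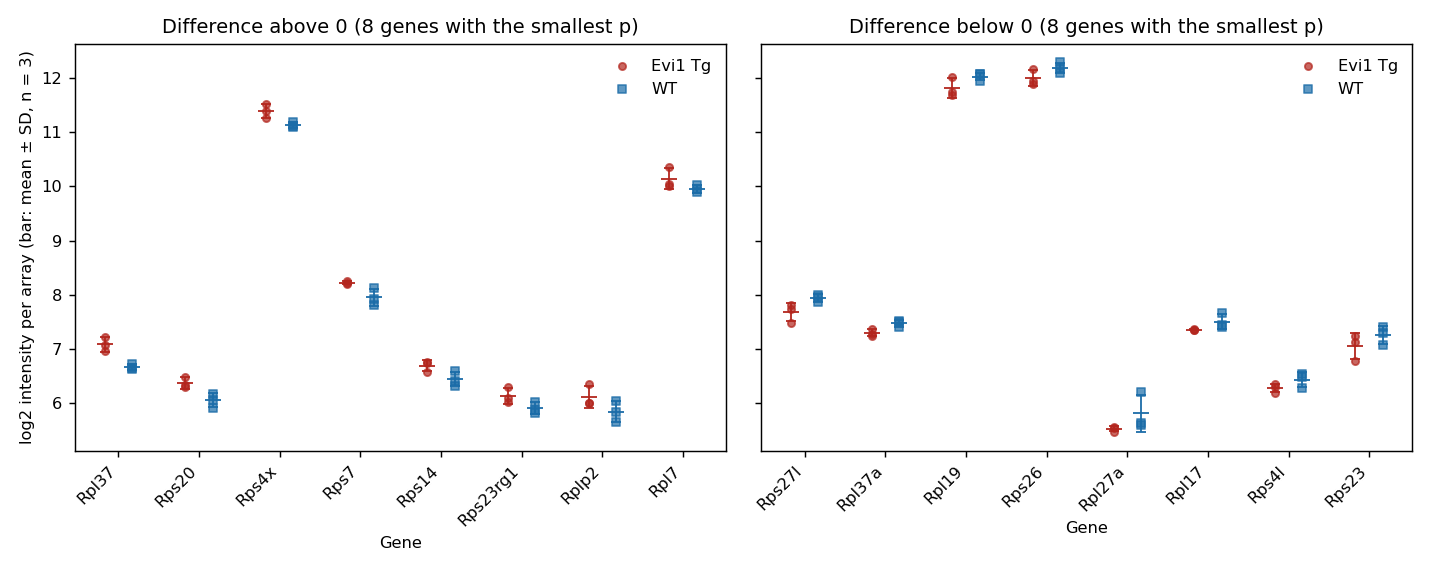
Log2 intensity on each array for the 8 genes with the smallest p and a difference above 0 (left panel) and the 8 below 0 (right panel), without pseudogene symbols; circles are Evi1 Tg, squares WT, and bars give the mean ± SD (n = 3). The groups are separate for Rpl37, Rps20, Rps4x and Rps7 on the left and for Rps27l, Rpl37a, Rpl27a and Rpl17 on the right.

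RefSeq start regions (GRCm38.p6) were found for 53 of the 83 genes, with 62 entries of 300 bases each, 250 before and 50 after the start. Stretches of 60 bases, 30 before and 30 after the annotated start, are shown for genes with a difference above 0 (Rpl37, Rps4x, Rps7, Rplp2), for genes with a difference below 0 (Rpl37a, Rps26, Rpl27a, Rps28) and for Rpl28, the brightest of the 83, so that the TOP-like run can be seen beside the values. Capitals mark the longest run of C and T that reaches within 20 bases of the start (the first of equal ones), each stretch being written 5′ to 3′ on the gene's own strand.
Rpl37, chr15:5116583-5116642, plus strand: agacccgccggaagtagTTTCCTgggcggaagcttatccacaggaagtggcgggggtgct
Rps4x, chrX:102189362-102189421, minus strand: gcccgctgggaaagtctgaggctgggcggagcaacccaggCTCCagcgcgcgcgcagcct
Rps7, chr12:28635924-28635983, minus strand: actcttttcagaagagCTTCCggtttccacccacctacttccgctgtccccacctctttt
Rplp2, chr7:141447621-141447680, plus strand: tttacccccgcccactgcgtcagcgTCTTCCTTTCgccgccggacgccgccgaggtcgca
Rpl37a, chr1:72711230-72711289, plus strand: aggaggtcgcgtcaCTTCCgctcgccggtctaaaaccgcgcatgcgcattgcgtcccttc
Rps26, chr10:128626477-128626536, minus strand: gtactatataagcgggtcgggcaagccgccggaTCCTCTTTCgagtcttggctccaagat
Rpl27a, chr7:109519165-109519224, plus strand: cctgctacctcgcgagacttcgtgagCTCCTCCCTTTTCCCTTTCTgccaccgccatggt
Rps28, chr17:33824533-33824592, minus strand: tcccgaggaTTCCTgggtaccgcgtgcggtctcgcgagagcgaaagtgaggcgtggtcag
Rpl28, chr7:4792935-4792994, plus strand: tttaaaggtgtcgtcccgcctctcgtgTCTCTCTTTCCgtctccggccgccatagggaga

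The run is 10 bases long in Rplp2 and 11 in Rpl28 and spans the annotated start in both. It has 20 bases in Rpl27a, 9 in Rps26, 6 in Rpl37, 5 in Rps7, Rpl37a and Rps28, and 4 in Rps4x, so that short runs stand in genes with differences of either sign. A run of at least 8 pyrimidines within 20 bases of the start was present in 32 of the 62 entries (51.6%), against 6893 of 32851 RefSeq entries of all genes (21.0%). On either strand of the 300 bases, CCGGAAG, a core letter string of ETS factors, was present in 23 of 62 entries (37.1%; all genes 8.86%) and AAGATGGC, a core string of YY1, in 3 (4.84%; all genes 2.75%). These strings can share the letters AAG where they adjoin. TATAA was present in 15 (24.2%; all genes 24.9%) and AAGATAA, a string bound by the first zinc finger domain of EVI1, in 1 (1.61%; all genes 3.47%). A match describes letters in this window, and annotated starts can lie some bases from the start in use.

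Of the stalk proteins that recruit elongation factors, Rplp0 forms the base and Rplp1 and Rplp2 the acidic arms. Rplp0 read 10.05, 10.06 and 9.65 in Evi1 Tg and 10.11, 10.05 and 9.79 in WT (difference -0.060, SE 0.146). Rplp1 read 12.83, 12.70 and 12.44 in Evi1 Tg and 12.61, 12.66 and 12.36 in WT (difference 0.11, SE 0.132). In both genes Evi1 Tg 3 and WT 3 were the lowest of their groups, and the groups overlapped. Rplp2 read 6.00, 6.35 and 5.99 in Evi1 Tg and 5.65, 5.83 and 6.04 in WT (difference 0.28, SE 0.141, adjusted p = 0.577), below background, with WT 3 inside the Evi1 Tg range. A brighter probe set shared with Snora52 read 10.14, 10.19 and 9.99 in Evi1 Tg and 10.16, 10.07 and 9.29 in WT (difference 0.27, SE 0.227), also with overlap.

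Rpl5 and Rpl11 form with 5S rRNA the particle that binds MDM2. Rpl5 read 7.33, 7.29 and 7.65 in Evi1 Tg and 7.07, 7.40 and 7.87 in WT (difference -0.025, SE 0.209), and Evi1 Tg 3 and WT 3 were the highest of their groups. Rpl11 read 6.52, 6.64 and 6.36 in Evi1 Tg and 6.08, 6.45 and 6.49 in WT (difference 0.17, SE 0.135). The groups overlapped for both genes. Rpl11 had a mean of 6.42 over the arrays, just above the background of 6.41, and a WT mean of 6.34, below it. A brighter probe set shared by Rpl5 and Rpl5-ps2 read 9.04, 9.28 and 9.07 in Evi1 Tg and 9.10, 8.82 and 8.31 in WT (difference 0.38, SE 0.198), the other sign, so the direction for Rpl5 depended on the probe set.

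Of genes mutated in Diamond-Blackfan anaemia 14 were measured, with 6 above 0, 8 below and a median of -0.022. Only Rps7, above, had an unadjusted p under 0.05. Rps26, at the mRNA exit channel, read 12.18, 11.95 and 11.90 in Evi1 Tg and 12.29, 12.18 and 12.09 in WT (difference -0.18, SE 0.105, adjusted p = 0.640). Evi1 Tg 1 lay within the WT range, the other Evi1 Tg arrays below it. Rps28, also at that channel, read 11.18, 10.65 and 10.63 in Evi1 Tg and 11.41, 11.32 and 10.65 in WT (difference -0.31, SE 0.237, adjusted p = 0.758). Rps19, the gene most often mutated in the disease, read 10.71, 10.16 and 10.03 in Evi1 Tg and 10.75, 10.69 and 10.16 in WT (difference -0.23, SE 0.225, adjusted p = 0.821). A dimmer probe set of Rps19 gave the other sign (difference 0.068, SE 0.0762). On the brighter probe sets of Rps28 and Rps19 the first Evi1 Tg array sat high with WT 1 and WT 2, while WT 3 sat low with the other Evi1 Tg arrays. Rps19 and Rpl35, used as a further example of this pattern, were named after their values were seen.

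The 8 measured proteins that line or surround the exit tunnel had a median of -0.076, with 2 above 0 and 6 below. Rpl19, which also forms a bridge between the subunits, read 12.02, 11.75 and 11.69 in Evi1 Tg and 12.07, 12.07 and 11.95 in WT (difference -0.21, SE 0.110, adjusted p = 0.583). Evi1 Tg 1 alone reached into the WT range. Rps23, which takes part in decoding, read 7.13, 6.79 and 7.24 in Evi1 Tg and 7.30, 7.07 and 7.40 in WT (difference -0.20, SE 0.146), with overlap. The large-subunit protein Rpl7 read 10.02, 10.04 and 10.37 in Evi1 Tg and 10.04, 9.95 and 9.89 in WT (difference 0.18, SE 0.115), with Evi1 Tg 3 standing above the other 5 arrays.

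The 5 genes with the highest mean signal had small differences. Rpl28 read 13.21, 13.17 and 13.16 in Evi1 Tg and 13.18, 13.12 and 13.08 in WT (difference 0.05, SE 0.0751). Rps6, the substrate of the S6 kinases, read 12.96, 12.93 and 12.91 in Evi1 Tg and 13.00, 12.92 and 12.98 in WT (difference -0.038, SE 0.0742). The large-subunit proteins Rpl29 (difference 0.021), Rpl21 (difference 0.0095) and Rpl4 (difference -0.040), the last a lining of the tunnel, had overlapping groups too. The 95% interval was -0.12 to 0.23 for Rpl28 and -0.21 to 0.14 for Rps6. Signal near the top of the scale can compress differences, and the highest intensity of any probe set on an array was 13831 to 14719. Fau, whose product carries Rps30, the small-subunit protein without an Rps symbol here, read 11.25, 11.16 and 11.14 in Evi1 Tg and 11.25, 11.30 and 10.97 in WT (difference 0.0094, SE 0.109).

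Paralogues did not mirror their partners in any fixed way. Rps27 read 7.75, 7.73 and 7.72 in Evi1 Tg and 7.27, 7.74 and 7.63 in WT (difference 0.19, SE 0.128), against the difference of -0.26 for Rps27l. The groups of Rps27 overlapped through WT 2, and a brighter probe set shared with Rps27rt gave a difference of -0.24 (SE 0.254). Rps4l, which RefSeq lists as a transcribed pseudogene, read 6.19, 6.35 and 6.29 in Evi1 Tg and 6.28, 6.48 and 6.54 in WT (difference -0.16, SE 0.0985), the other sign to Rps4x. For Rpl3 and the muscle paralogue Rpl3l the differences were 0.023 (SE 0.139) and 0.15 (SE 0.113). For Rpl7 and Rpl7l1, a nucleolar relative, they were 0.18 and 0.091. Rpl22, needed for T cell development in mice, and Rpl22l1 had differences of 0.060 (SE 0.0921) and 0.16 (SE 0.149). Rpl39 at the tunnel and its testis paralogue Rpl39l had -0.11 and 0.063. Rpl3l, Rpl22l1, Rpl39, Rpl39l, Rps4l and the testis gene Rpl10l (difference 0.057) lay below background, so their differences say little about the transcripts. Rps23rg1, a retrogene of Rps23, read 6.02, 6.29 and 6.09 in Evi1 Tg and 5.82, 6.03 and 5.88 in WT (difference 0.22, SE 0.105), also below background.

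Of the 15 pseudogene symbols RefSeq lists 4 as transcribed. Rpl31-ps20 and Rpl34-ps2 were bright. Rpl31-ps20 read 11.35, 10.76 and 11.22 in Evi1 Tg and 11.38, 11.50 and 11.24 in WT (difference -0.26, SE 0.162), and Rpl34-ps2 read 11.60, 11.26 and 11.22 in Evi1 Tg and 11.67, 11.69 and 11.37 in WT (difference -0.21, SE 0.138). Pseudogene copies are nearly identical to their parents, and which transcript fills these probes was not tested. The genes with the lowest means, Rps15a-ps1, Rpl17-ps10, Rpl32l, Rpl10l and Rps15a-ps2, had differences from -0.025 to 0.092 at log2 intensities under 5.

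The bright genes varied more by array than by group. Of the 83 genes 33 had a mean log2 intensity of at least 10, a limit set after the values were seen, and in 27 of these Evi1 Tg 1 was higher than both other Evi1 Tg arrays. The same held for 31.3% of the 894 genes of all kinds at that brightness. The exceptions below both were Rpl7 and Rps4x. In 24 of the 33 WT 3 was lower than WT 1 and WT 2, as it was for 40.2% of the 894, and in Rpl3, Rpl4, Rpl15 and Rpl6l it was higher than both. The 33 genes share arrays and labelling and are not independent of each other.

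Expressed as the median deviation of the 33 bright genes from their own means, Evi1 Tg arrays 1 to 3 stood at 0.10, -0.023 and -0.10, and WT arrays 1 to 3 at 0.024, 0.061 and -0.049. All 894 bright genes gave -0.0090, -0.017 and 0.028 in Evi1 Tg and 0.010, -0.016 and 0.048 in WT. The spread within each group was thus wider than the gap between group medians. Rpl35, a protein near the tunnel's end, showed it at full size, reading 11.91, 11.40 and 11.33 in Evi1 Tg and 11.81, 11.85 and 11.59 in WT (difference -0.20, SE 0.167). Dimmer probe sets of Rpl35 gave differences of -0.23 (SE 0.195) and, below background, 0.14 (SE 0.216). The 50 dimmer genes gave 0.040, -0.038 and 0.0029 in Evi1 Tg and 0.0049, 0.020 and -0.0049 in WT. Over the 6 arrays the median Pearson correlation between pairs of bright genes was 0.42 (528 pairs), against -0.015 among the dimmer genes, 0.0056 among all 894 bright genes and 0.80 among 44 ribosome biogenesis factors. These values describe arrays that all pairs share.

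**Figure D3:**
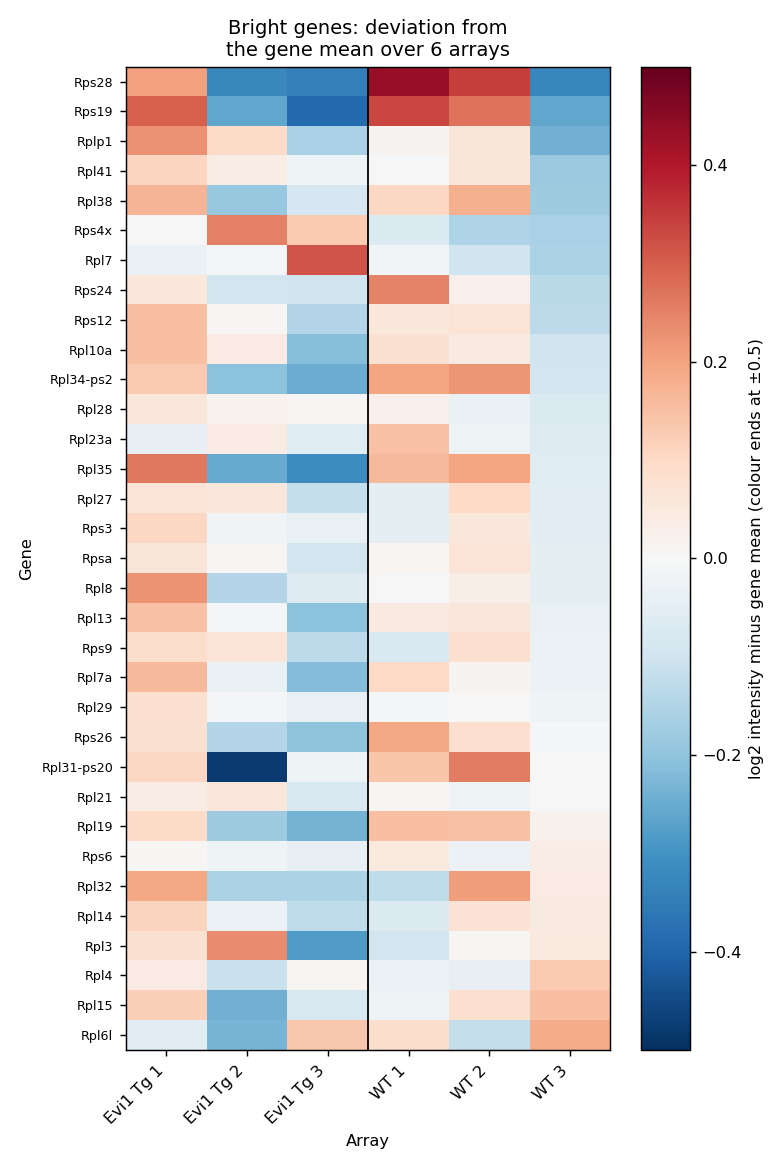
Deviation of each of the 33 bright genes from its mean over the 6 arrays (colour, log2 intensity), with arrays across (Evi1 Tg left of the line, WT right) and genes down in order of WT 3. Evi1 Tg 1 is above both other Evi1 Tg arrays in 27 genes and WT 3 is below both other WT arrays in 24, while Rps4x runs with its group.

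Genes around the ribosome varied by array in another way. For 44 measured ribosome biogenesis factors, which process rRNA and assemble the subunits in the nucleolus, the median difference was 0.21, 41 lay above 0 (all genes 53.5%), and 8 had an unadjusted p under 0.05, all higher (all genes 4.5%), but 0 passed the adjusted test. The same shares over all genes apply to the lists that follow. Their median deviations were 0.012, 0.15 and 0.11 in Evi1 Tg and -0.32, -0.20 and 0.23 in WT, so that WT 3 stood above every Evi1 Tg array and the other WT arrays below. The median difference was 0.38 without WT 3, 0.10 without WT 1 and 0.12 without WT 2. Rrp1b, a nucleolar factor, read 8.38, 8.42 and 8.19 in Evi1 Tg and 7.53, 7.78 and 8.02 in WT (difference 0.56, SE 0.139, adjusted p = 0.236). Utp3 (difference -0.13) and Ltv1 (difference -0.10), factors of the small-subunit precursor, were among the 3 below 0.

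RNA polymerase I and III subunits, which transcribe rRNA and 5S rRNA, had a median difference of 0.13 (21 of 25 above 0, 5 at an unadjusted p under 0.05, 0 passing), which became 0.23 without WT 3 and 0.053 without WT 1. Polr1b, the second largest subunit of polymerase I, read 8.20, 8.24 and 8.09 in Evi1 Tg and 7.41, 7.58 and 7.86 in WT (difference 0.56, SE 0.127, adjusted p = 0.201), with separate groups. All 11 measured chaperones and importers of ribosomal proteins lay above 0 (median 0.33, 2 at an unadjusted p under 0.05, 0 passing), among them Grwd1 (difference 0.33) and Nap1l1 (difference 0.55). Nap1l1 read 10.51, 10.44 and 10.30 in Evi1 Tg and 9.69, 9.56 and 10.35 in WT, where WT 3 fell inside the Evi1 Tg range. Without WT 3, 556 of all genes were called (2.51%), 383 higher (1.73%) and 173 lower (0.78%). In that setting 6 biogenesis factors, Polr1b and 4 chaperones (Nap1l1, Tsr2, Ipo5 and Kpnb1) passed higher. Of the 83 ribosomal protein genes 0 passed, the smallest limma adjusted p being 0.0980 for Rps7. At the shares over all genes few calls would fall among 83 genes, so this count is no result about them.

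The 71 mitochondrial ribosomal proteins, which build a separate ribosome, had a median of 0.067, with 52 above 0, 5 at an unadjusted p under 0.05 and 0 passing. Their median was 0.17 without WT 3, when Mrps2 alone of them passed, and 0.025 without WT 1. Mrps2 of the small mitochondrial subunit read 7.51, 7.62 and 7.52 in Evi1 Tg and 6.81, 7.03 and 7.35 in WT (difference 0.48, SE 0.141, adjusted p = 0.293). The 18 translation factors whose mRNAs carry TOP motifs had a median of -0.0050 (9 above 0, 9 below). Of these 1 was higher and 0 lower at an unadjusted p under 0.05, and 0 passed. Nap1l1, counted here as well as among the chaperones, had the highest difference (0.55) and alone of this list passed without WT 3. Eif3l was at 0.17, Eif3k at -0.33 and Eif3f at -0.17, all subunits of the initiation factor eIF3. The 17 other initiation factors had 16 above 0 and a median of 0.12, which became 0.26 without WT 3 and 0.071 without WT 1 or WT 2. Among them Eif6, which keeps the subunits apart, had a difference of 0.46 (adjusted p = 0.311), Eif3i of eIF3 had 0.24, and Eif4a1, a helicase, had -0.16. Median differences and median deviations of these lists are descriptions of the same 6 arrays.

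**Figure D4:**
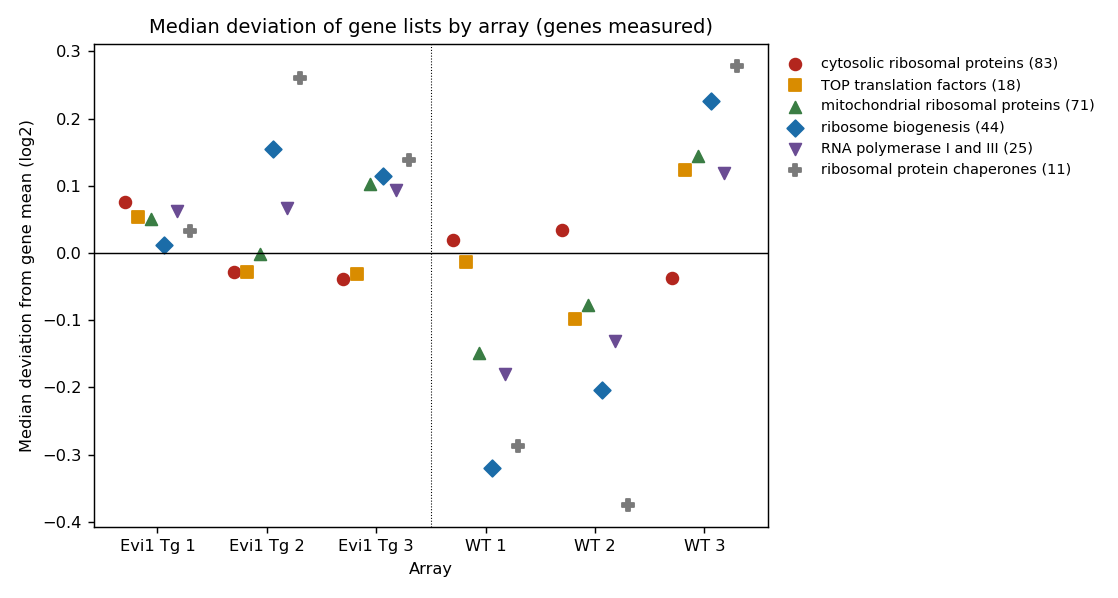
Median deviation of each gene list from its genes' means over the 6 arrays (log2 intensity), by array, with the number of genes measured in the legend. The 83 cytosolic ribosomal protein genes stay between -0.038 and 0.077, while ribosome biogenesis runs from -0.32 in WT 1 to 0.23 in WT 3.

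Among 22 regulators of ribosomal protein genes and their translation 13 lay above 0 (median 0.035), 1 was higher and 1 lower at an unadjusted p under 0.05, and 0 passed. Larp1, which holds TOP mRNAs, had a difference of 0.20 (adjusted p = 0.567), and Eif4ebp2, which restrains cap-dependent initiation, had 0.21. Tsc2, an inhibitor of mTORC1 signalling, read 8.84, 8.79 and 8.83 in Evi1 Tg and 9.06, 9.13 and 8.97 in WT (difference -0.23, SE 0.0801, adjusted p = 0.387), with separate groups. Rbm5, an RNA-binding protein in that list, had a difference of -0.22.

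The 4 measured genes of the p53 checkpoint, to which free Rpl5 and Rpl11 report, all read lower in each Evi1 Tg array than in any WT array (all genes 7.47%). All 4 had an unadjusted p under 0.05 (all genes 5.8%), while none passed the adjusted test. Of the 9226 genes above background 1041 were separate in that direction and 966 were lower at an unadjusted p under 0.05. Cdkn2a, which encodes Arf, an inhibitor of Mdm2, and the cell cycle inhibitor p16, read 6.35, 6.26 and 6.16 in Evi1 Tg and 7.25, 7.09 and 6.87 in WT (difference -0.81, SE 0.116, adjusted p = 0.0772), the Evi1 Tg arrays being below background. Mdm4, an inhibitor of p53, had a difference of -0.47 (adjusted p = 0.181), Mdm2, the ligase of p53 and its target, -0.48 (0.236), and Cdkn1a, the cell cycle inhibitor p21, -0.48 (0.195). Mdm2 and Cdkn1a were named because they complete the list of 4. Without WT 3 Cdkn2a passed (difference -0.91, adjusted p = 0.0201). Trp53 itself was not analysed here.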

How the data were processed

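Per the labels' protocols, biotinylated cDNA was made from total RNA with the WT PLUS reagents for GeneChip arrays. The intensity values in the deposited table, 1 per probe set and array, are linear as judged from their range. How they were background corrected, normalized and summarised is not stated in the labels. A shift common to most genes could have been removed by normalization, and differences near background are compressed.

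Of 34351 probe sets, 23521 named 1 gene, 1814 several and 9016 none in the platform annotation. Per gene the single-symbol probe set with the highest mean over 6 arrays was used, and intensities were taken to log2 without a pseudocount or filter. Evi1 Tg was set against WT (n = 3 each) in limma 3.58.1 (lmFit, eBayes; R 4.3.3), and p-values were adjusted by Benjamini-Hochberg over 22180 genes. The procedure was tested on simulated data with independent noise for each gene and added changes larger than any difference of the 83. Such data lack the deviations that genes share on these arrays. The simulation therefore says nothing on differences as small as those of the 83. Background was the 90th percentile of 54 silent genes; 9226 genes (41.6%) and 63 of the 83 genes lay above it. Figures were drawn with matplotlib 3.10.9.

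The genes and lists were chosen with earlier results of these data known. Named were any gene passing, the 8 with the smallest p in each direction (without pseudogene symbols), the 5 brightest and 5 dimmest, the stalk, 5S, 5q and paralogue genes, up to 2 per direction of the Diamond-Blackfan list and each pathway list, Mecom and Fau. Replicate numbers are shared between groups. Over all genes, same-numbered arrays correlated at 0.189, -0.185 and 0.061 in their deviations from the group mean. Among the 33 bright genes, array 3 had the lowest median deviation of each group (-0.10 in Evi1 Tg and -0.049 in WT). Alternatives were another normalization, filter, variance model, array weights, probe set rule or pseudocount, a replicate block, a narrower gene list, and leaving out each array.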

Additional observations from a re-analysis of the deposited data

How the results depend on the processing

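In all 16 alternatives 0 of the cytosolic ribosomal protein genes passed the threshold, with the smallest adjusted p between 0.0980 (Rps7, without WT 3) and 0.592 (Rpl37, without Evi1 Tg 2). The narrower gene list reused the main fit, so its count of 0 was fixed in advance. The median difference ran from -0.067 (without Evi1 Tg 1) to 0.022 (without Evi1 Tg 3), so its sign rests on single arrays, and genes above 0 numbered 29 to 44 with an array left out. With the replicate block Rpl37 had a limma adjusted p of 0.312 and 9 genes of the whole table passed, all lower. Same-numbered arrays correlated over all genes at 0.189, -0.185 and 0.061 in their deviations, so the numbers were not taken as pairs. Over all genes the calls were 82 lower and 32 higher with array weights and 173 lower and 383 higher without WT 3, and 2 lower and 0 higher without Evi1 Tg 2. Signs turned for Rps6 with quantile normalization (0.011), for Rpl21 (-0.0040) and Fau (-0.0041) with median centring, for Rpl5 (0.082), Ltv1 (0.026) and Fau (-0.023) with array weights, for Rpl4 (0.083) and Rplp0 (0.019) with the mean over probe sets, and for Rpl5 (0.38) and Rps27 (-0.24) with shared probe sets included. The median deviation of the genes was 0.026 in WT 3 with median centring and 0.084 in WT 1 with shared probe sets. Array weights called 1 p53 checkpoint gene, Cdkn2a (-0.85, adjusted p = 0.0323). With an array left out, signs also turned within these ranges: Fau -0.094 to 0.074, Ltv1 -0.30 to 0.17, Utp3 -0.26 to 0.12, Rpl3 -0.091 to 0.17, Rpl4 -0.071 to 0.015, Rpl5 -0.22 to 0.19, Rpl7l1 -0.037 to 0.17, Rpl10l -0.0068 to 0.098, Rpl17-ps10 -0.072 to 0.014, Rpl21 -0.017 to 0.051, Rpl29 -0.012 to 0.045, Rpl39l -0.021 to 0.19, Rplp0 -0.16 to 0.078 and Rps15a-ps2 -0.040 to 0.10. Without losing their sign, values moved to -0.16 for Rps27l, 0.16 for Rplp2 and -0.069 for Rps23 without Evi1 Tg 2, to 0.069 for Rpl7 without Evi1 Tg 3, and to 0.049 for Rps27 and 0.037 for Rpl11 without WT 1. The median of the regulators ran from -0.027 to 0.070. Nap1l1 was counted both as an assembly chaperone and as a TOP translation factor. Calls ran from 0 to 6 in ribosome biogenesis, 0 to 4 in assembly chaperones, and 0 to 1 in RNA polymerase I and III, TOP translation factors, mitochondrial ribosomal proteins and p53 checkpoint genes, the higher count each time without WT 3. There Rrp1b had 0.68 (adjusted p = 0.0465), Nap1l1 0.79 (0.0249), Polr1b 0.68 (0.0312), Mrps2 0.63 (0.0385) and Cdkn2a -0.91 (0.0201). The cause was not tested. Signal near background limits the 20 genes not above it.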

Other observations

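Probe sets that name a ribosomal protein gene together with other genes stood outside the comparison. There were 58 of them, with 33 above 0 and 25 below, a median difference of 0.021 and a range of -0.26 to 0.59, and 0 passed the adjusted test over all probe sets (smallest adjusted p 0.377), 4 being higher at an unadjusted p under 0.05. A pair of these naming Rpl21 with several predicted genes gave 0.55 (SE 0.185) and 0.59 (SE 0.221), whereas 3 probe sets of Rpl21 alone gave 0.0095, -0.0020 and, on the dimmest, 0.27 (SE 0.172). One of the pair read 7.82, 8.54 and 8.30 in Evi1 Tg and 7.68, 7.52 and 7.80 in WT, the groups being separate by a small margin.

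Of the 83 genes 25 had several probe sets of their own, which shared a sign in 13 genes and not in 12. One of the 13, Rpl23a, could not have differed, as its 2 probe sets had identical rows. Rpl41, a very short large-subunit protein, gave 0.083 on its brightest probe set and 0.40 (SE 0.111, adjusted p = 0.317) on its dimmest, where the arrays read 6.66, 6.71 and 6.60 in Evi1 Tg and 6.48, 6.17 and 6.13 in WT. Those groups did not overlap. Some probe sets had identical rows, namely 6 of Rps12, 2 of Rpl23a and 2 of Rps19, and each was counted once per gene in the comparison.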
